A study of Mus musculus with 42 samples.

Results

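The plasma proteins of the complement and coagulation cascades were followed through 31 genes on the array, named by symbol: C2, C3, C4b, C8g, C9, Cfb, Cfi, Mbl1, Mbl2, Masp1 and Masp2 of complement, F2, F5, F7, F9, F10, F11, F12, F13b, Fga, Fgb and Fgg of coagulation, and Serpinc1, Serpind1, Serpinf2, Plg, Proc, Kng1, Klkb1, Apoh and Hgfac among the inhibitors, fibrinolytic enzymes and contact proteins. All 31, of 20651 genes that the array's 55681 probes could be tied to, had a probe, and all 31 were well above background on every one of the 13 liver arrays. The set was chosen to ask whether the messages of proteins secreted by hepatocytes were lower in general after exposure to BkF, that is benzo(k)fluoranthene, one of the polycyclic aromatic hydrocarbons, which activates the aryl hydrocarbon receptor.

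Adult male Muta™Mouse animals, a transgenic strain carrying a lacZ reporter for mutation assays, aged about 11 weeks, received BkF in olive oil by oral gavage on 28 consecutive days. Group D0 received olive oil alone, and the daily dose per kg of body weight was 25 mg in D1, 50 mg in D2 and 100 mg in D3. The tissues, the left lobe of the liver, the right lobe of the lung and the forestomach, were taken 72 hours after the last dose. The 42 arrays came from 15 mice: liver from 4, 2, 3 and 4 mice at D0, D1, D2 and D3, lung from 4, 3, 4 and 4, and forestomach from 4, 3, 4 and 3. Each array compared 1 tissue sample (red, Cy5) with a universal mouse reference RNA (green, Cy3), and values are log2 ratios of sample to reference after loess scaling within the array. The ratio of one gene is not comparable with that of another, because the reference holds a different amount of each.

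Hepatocytes make nearly all circulating complement components and clotting factors. In complement, the proteases of the mannose-binding lectin complex, or those of C1 bound to antibody, cleave C4 and C2, the convertases cleave C3, and the terminal components with C9 form the membrane pore. In coagulation, the contact and tissue factor pathways meet at factor X, which with factor V turns prothrombin into thrombin, and thrombin turns fibrinogen into fibrin. Antithrombin, heparin cofactor II and protein C restrain thrombin, and plasmin dissolves the clot. Many of these genes are read from promoters bound by liver transcription factors such as HNF1 and C/EBP, and fibrinogen is in addition raised by interleukin-6 through STAT3.

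Fibrinogen, the end product of the coagulation branch, is built from chains encoded by 3 neighbouring genes on mouse chromosome 3, and their promoters are shown because the chains are made in step. Each line gives 250 bases before the start site from RefSeq (GRCm38.p6), on the gene's strand. Capitals mark matches on either strand to GCGTG (the core of the aryl hydrocarbon receptor site), GTTAAT (an HNF1 half-site), TTCNNNGAA (a STAT site) or TTNNGNAA (a C/EBP site). Matches of different motifs may overlap.
Fga, chr3:83025903-83026152, plus strand: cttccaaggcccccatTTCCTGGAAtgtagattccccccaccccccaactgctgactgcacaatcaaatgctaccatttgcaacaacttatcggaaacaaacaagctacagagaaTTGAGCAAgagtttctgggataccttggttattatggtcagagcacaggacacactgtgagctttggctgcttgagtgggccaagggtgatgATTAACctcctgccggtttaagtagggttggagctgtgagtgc
Fgb, chr3:83049864-83050113, minus strand: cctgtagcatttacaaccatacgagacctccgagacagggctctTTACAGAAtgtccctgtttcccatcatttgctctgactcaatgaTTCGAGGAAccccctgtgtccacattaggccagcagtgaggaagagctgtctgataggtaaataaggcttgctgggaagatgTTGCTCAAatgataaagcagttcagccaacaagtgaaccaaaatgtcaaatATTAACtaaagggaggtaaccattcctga
Fgg, chr3:83007474-83007723, plus strand: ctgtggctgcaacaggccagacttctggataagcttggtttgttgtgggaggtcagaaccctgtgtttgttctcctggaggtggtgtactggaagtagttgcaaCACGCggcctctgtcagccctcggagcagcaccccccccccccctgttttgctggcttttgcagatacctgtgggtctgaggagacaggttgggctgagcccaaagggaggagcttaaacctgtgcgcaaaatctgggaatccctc
In these windows GTTAAT and TTCNNNGAA each matched once in Fga and once in Fgb, TTNNGNAA matched once in Fga and 2 times in Fgb, and GCGTG matched once in Fgg only. Promoters of 23 of the 31 genes were at hand. GTTAAT was present in 4 of the 23 (17.4%) against 6.43% of all 32851 promoters of that length, TTCNNNGAA in 5 (21.7%) against 7.02%, TTNNGNAA in 10 (43.5%) against 36.8%, and GCGTG in 3 (13.0%) against 28.2%. These are counts of letters, not of bound sites.

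The labelled tissue was borne out by its markers: the 8 hepatocyte markers were above background on every liver, and their mean log2 ratio lay between 7.02 and 7.70. The D3 liver of mouse 17 stood apart, with a mean log2 ratio of 3.55 over 10 skeletal muscle markers, 9 of them above background, against -0.83 to -0.55 in the other 12 livers. The same liver had the highest mean of the pancreatic acinar markers (0.84, with 6 of 9 above background), of the B cell and plasma cell markers (-1.64), of the glandular stomach markers (0.66) and of the stellate cell and fibroblast markers (-0.14) among the 13. Livers lay on 2 slides that each held all dose groups, but the position of an array along the slide followed the dose in all but 1 D3 liver, so that position and dose cannot be told apart. Position followed the dose in every lung array as well, and in every forestomach array but that of D0 mouse 2. Cyp1a1, the main target of the aryl hydrocarbon receptor, was 5.26 ± 1.03 (SE) higher on the log2 scale at D3, with an adjusted p of 0.131 (limma).

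None of the 31 genes passed the test in liver at any dose (limma, Benjamini-Hochberg over the 30509 probes kept in liver, where a call needs a change of 1.5-fold or more and an adjusted p no higher than 0.05). Over all probes 0% were called at D1, 0.0426% at D2, 0.0524% at D3, 0.0787% with the doses pooled and 0% for the trend with dose. The smallest adjusted p of a member was 1 at D1, 0.256 at D2, 0.253 at D3, 0.360 with the doses pooled and 0.231 for the trend. Most members nevertheless had a value below vehicle after loess scaling, 27 of 31 at D1, 29 at D2 and 30 at D3 against 51.3% of all probes at each dose, whereas with each array centred on its median in place of loess 22 of the 31 were above vehicle at D3, as were 77.1% of all probes. Among all probes with a mean log2 ratio to the reference from 6 to 8 in the D1 and D2 livers, 84.8% were below vehicle at D3 after loess scaling. Above 8 the share was 95.1%, and these 2 classes held 16 and 10 of the members. The median change of the members was -0.11 at D1, -0.20 at D2 and -0.27 at D3 on the log2 scale, the last equal to 83% of the vehicle ratio, beside -0.0052 over all probes at D3. These contrasts share the 4 vehicle livers. In bulk tissue, fewer hepatocytes and less of each message per hepatocyte cannot be told apart.

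**Figure D1:**
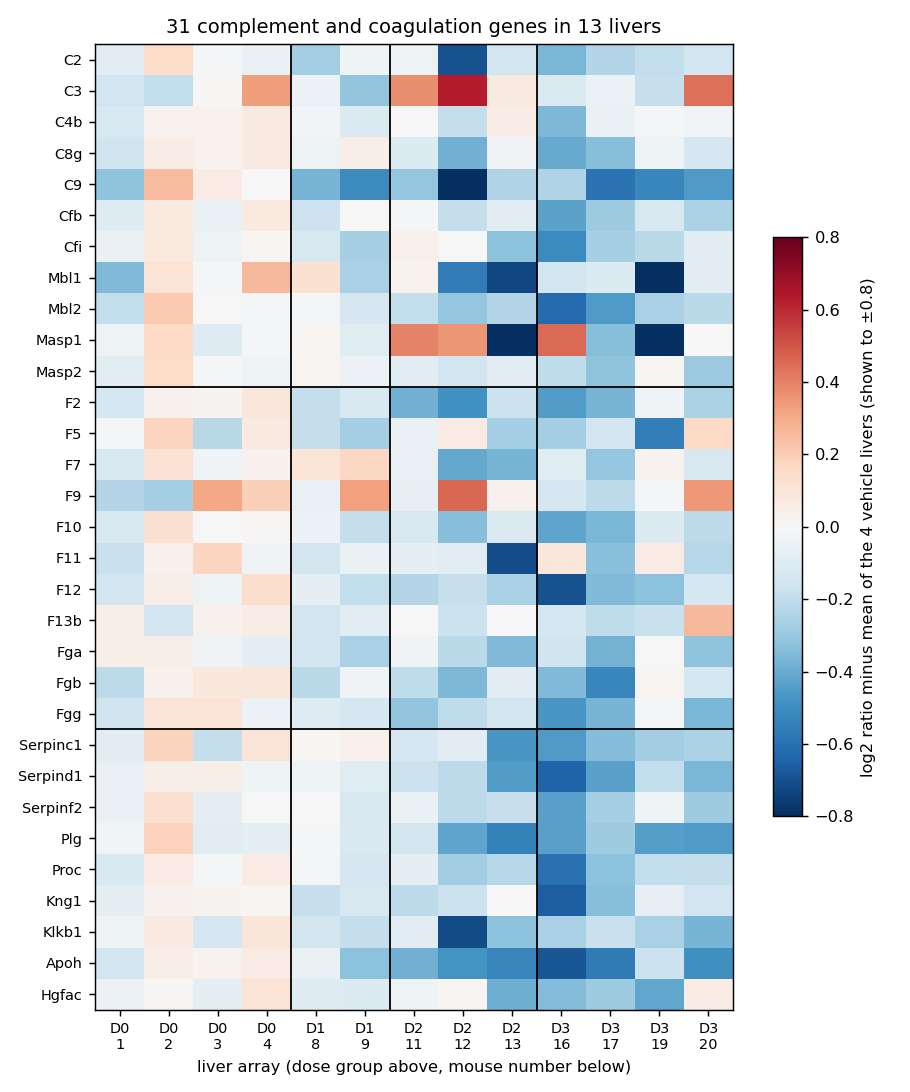
Log2 ratio of each of the 31 genes (rows, in the order complement, coagulation factors, inhibitors and related proteins) in each of the 13 livers (columns, dose group and mouse number), minus the mean of the 4 vehicle livers, after loess scaling. Blue (lower) prevailed in the D3 columns, where 30 of 31 means were below vehicle, while C3 was red in D2 mouse 12 and D3 mouse 20, and with median centring 22 of the 31 D3 means were above vehicle.

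At an unadjusted p under 0.05, 0 members were lower at D1 (0.639% of all probes), 7 at D2 (5.57%), 15 at D3 (3.89%), 11 with the doses pooled (3.65%) and 17 for the trend (4.47%), and none was higher in any of these contrasts. With median centring 0 of the 31 reached that level at D2, at D3 or for the trend. At D3, 10 members had all 4 livers below all 4 vehicle livers (C2, Cfb, Cfi, Mbl2, Serpinc1, Serpind1, Plg, Proc, Klkb1 and Apoh), against 3.04% of all probes. At D2, 5 members (F2, F12, Serpind1, Plg and Apoh) had all 3 livers below vehicle, against 4.79% of all probes.

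The 11 complement genes had a median change of -0.24 at D3, with 10 below vehicle and 3 at an unadjusted p under 0.05. Values ran from -0.45 for C9 to 0.022 for C3. C3, the hub on which all complement pathways converge, had, in the order of mice 1 to 4, 8, 9, 11 to 13, 16, 17, 19 and 20 used throughout, log2 ratios of 5.8, 5.76, 5.97 and 6.29 in the vehicle livers, 5.91 and 5.64 in the D1 livers, 6.33, 6.58 and 6.03 in the D2 livers and 5.84, 5.91, 5.77 and 6.39 in the D3 livers. The D2 and D3 livers of C3 overlapped the vehicle range, mice 12 and 20 were the highest, and its D3 change of 0.022 ± 0.168 (SE) was the highest of the set. Its other probe gave 0.0027. C9, the pore-forming terminal component, had log2 ratios of 6.39, 6.96, 6.77 and 6.71 in the vehicle livers, 6.33 and 6.2 in the D1 livers, 6.4, 4.91 and 6.46 in the D2 livers and 6.46, 6.12, 6.19 and 6.25 in the D3 livers. The D2 liver of mouse 12 was the lowest of the 13 by a wide margin, and only the D3 liver of mouse 16 among the 4 D3 livers was within the vehicle range. The C9 change was -0.78 ± 0.29 at D2 (adjusted p = 0.377), which was -0.28 without mouse 12, and -0.45 ± 0.27 at D3 (adjusted p = 0.720). The reference signal of C9 was above background on 0 of the 13 livers, so its ratio has a loosely set denominator, and the same held for Masp1 and F13b, with 1 array each.

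Among the recognition molecules of the lectin pathway, Mbl2 had a D3 change of -0.39 ± 0.113 (SE, adjusted p = 0.395) and Mbl1 one of -0.32 ± 0.215, which was -0.115 without the D3 liver of mouse 19, while their proteases Masp1 and Masp2 differed from vehicle by -0.19 ± 0.30 and -0.20 ± 0.095. Without the D3 liver of mouse 19 Masp1 was at 0.038. C2 and C4b, which form the C3 convertase of the classical and lectin pathways, had D3 changes of -0.24 and -0.11, the latter being -0.028 without the D3 liver of mouse 16. Cfb, the protease of the alternative pathway convertase, had -0.27, Cfi, which degrades C3b and C4b, had -0.27, and C8g, a chain of the terminal component C8, had -0.23. With median centring 8 of these 11 complement genes were above vehicle at D3, and C9, Mbl1 and Mbl2 were not.

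The 11 coagulation factors all had D3 values below vehicle after loess scaling, with a median of -0.21 and 4 at an unadjusted p under 0.05, but 10 of the 11 were above vehicle with median centring, F12 being the exception. F2, prothrombin, had log2 ratios of 8.07, 8.25, 8.24 and 8.31 in the vehicle livers, 8.03 and 8.09 in the D1 livers, 7.83, 7.73 and 8.05 in the D2 livers and 7.77, 7.84, 8.19 and 7.96 in the D3 livers. Its 3 D2 livers lay below every vehicle liver, and the D3 liver of mouse 19 lay within the vehicle range. Its change was -0.35 ± 0.12 at D2 (adjusted p = 0.348) and -0.28 ± 0.11 at D3 (adjusted p = 0.585). F12, the contact factor that starts the intrinsic pathway, had the lowest D3 value of the factors, -0.38 ± 0.115 (adjusted p = 0.412).

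The fibrinogen chains had similar D3 changes. Fga, the alpha chain, had log2 ratios of 9.0, 9.01, 8.93 and 8.88 in the vehicle livers, 8.81 and 8.7 in the D1 livers, 8.93, 8.74 and 8.6 in the D2 livers and 8.8, 8.58, 8.96 and 8.63 in the D3 livers. Fgb, the beta chain, had 8.98, 9.22, 9.27 and 9.28 in the vehicle livers, 8.97 and 9.16 in the D1 livers, 8.98, 8.82 and 9.1 in the D2 livers and 8.83, 8.67, 9.2 and 9.05 in the D3 livers. Fgg, the gamma chain, had 10.25, 10.51, 10.52 and 10.36 in the vehicle livers, 10.31 and 10.27 in the D1 livers, 10.09, 10.21 and 10.26 in the D2 livers and 9.94, 10.04, 10.4 and 10.04 in the D3 livers. In each chain the D3 liver of mouse 19 lay within the vehicle range and the livers of mice 16 and 17 lay below it. The D3 changes were -0.21 ± 0.105 for Fga, -0.25 ± 0.125 for Fgb and -0.30 ± 0.11 for Fgg (SE, adjusted p = 0.659, 0.666 and 0.524). The 95% intervals, -0.44 to 0.014, -0.52 to 0.021 and -0.54 to -0.068, all lay inside 1.5-fold after loess scaling (0.585 on the log2 scale), so a fall of fibrinogen messages of that size was outside the interval of each. With median centring the chains were at 0.094, 0.066 and 0.0060.

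F9, whose loss causes haemophilia B, was the factor nearest to vehicle, with log2 ratios of 5.39, 5.36, 5.94 and 5.82 in the vehicle livers, 5.57 and 5.96 in the D1 livers, 5.56, 6.09 and 5.66 in the D2 livers and 5.5, 5.42, 5.61 and 5.97 in the D3 livers. The groups overlapped, and the D3 change was -0.0034 ± 0.176. F13b, the carrier subunit of the fibrin cross-linking factor XIII, had 7.04, 6.84, 7.02 and 7.05 in the vehicle livers, 6.84 and 6.9 in the D1 livers, 6.98, 6.81 and 6.99 in the D2 livers and 6.85, 6.79, 6.8 and 7.24 in the D3 livers. Mouse 20 was the highest of the 13 livers for F13b and its D3 change was -0.065 ± 0.111, which was -0.173 without mouse 20 and -0.020 without mouse 17. The remaining factors had D3 changes of -0.21 ± 0.143 for F5, the cofactor of factor X, -0.13 ± 0.106 for F7, which starts the tissue factor pathway, -0.28 ± 0.101 for F10, which cleaves prothrombin, and -0.10 ± 0.151 for F11 of the intrinsic pathway. Leaving out 1 liver moved F5 to -0.090 (without D3 mouse 19), and F7 to -0.066 and F11 to -0.027 (both without D3 mouse 17). The second F5 probe disagreed in sign with the first at D3, 0.099 against -0.21.

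The 9 inhibitors, fibrinolytic and contact proteins had the lowest median at D3, -0.33, and 8 of the 9 reached an unadjusted p under 0.05, all but Hgfac. With median centring 4 of the 9 were above vehicle (Serpinf2, Kng1, Klkb1 and Hgfac). Apoh, the phospholipid-binding plasma protein beta-2-glycoprotein I, had log2 ratios of 10.47, 10.68, 10.66 and 10.69 in the vehicle livers, 10.57 and 10.3 in the D1 livers, 10.24, 10.15 and 10.1 in the D2 livers and 9.94, 10.06, 10.46 and 10.14 in the D3 livers. All D2 and D3 livers lay below all vehicle livers, with mouse 19 just under the lowest vehicle liver. The change was -0.46 ± 0.125 at D2 and -0.48 ± 0.116 at D3 (adjusted p = 0.256 and 0.253), the lowest D3 value of the 31, and it was -0.18 with median centring.

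Serpind1, heparin cofactor II, had log2 ratios of 6.97, 7.08, 7.08 and 7.0 in the vehicle livers, 7.0 and 6.94 in the D1 livers, 6.86, 6.83 and 6.59 in the D2 livers and 6.39, 6.6, 6.84 and 6.66 in the D3 livers. The D2 and D3 livers were all below the vehicle livers and mouse 16 was the lowest. Its D3 change was -0.41 ± 0.105 (adjusted p = 0.297). Plg, plasminogen, had 8.57, 8.78, 8.5 and 8.52 in the vehicle livers, 8.58 and 8.47 in the D1 livers, 8.44, 8.17 and 8.05 in the D2 livers and 8.16, 8.31, 8.15 and 8.14 in the D3 livers. Again no D2 or D3 liver reached the vehicle range, and the change was -0.37 ± 0.11 at D2 (adjusted p = 0.297) and -0.40 ± 0.10 at D3 (adjusted p = 0.302). Serpinc1, antithrombin, had 10.27, 10.54, 10.18 and 10.47 in the vehicle livers, 10.38 and 10.41 in the D1 livers, 10.22, 10.27 and 9.9 in the D2 livers and 9.91, 10.02, 10.09 and 10.11 in the D3 livers. Its D1 livers lay within the vehicle range and its 4 D3 livers below it, with a D3 change of -0.33 ± 0.11 (adjusted p = 0.476). The others had D3 changes of -0.25 for Serpinf2, the plasmin inhibitor, -0.33 for Proc, protein C, -0.30 for Kng1, the kininogen, -0.27 for Klkb1, plasma kallikrein, and -0.25 for Hgfac, the activator of hepatocyte growth factor.

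**Figure D2:**
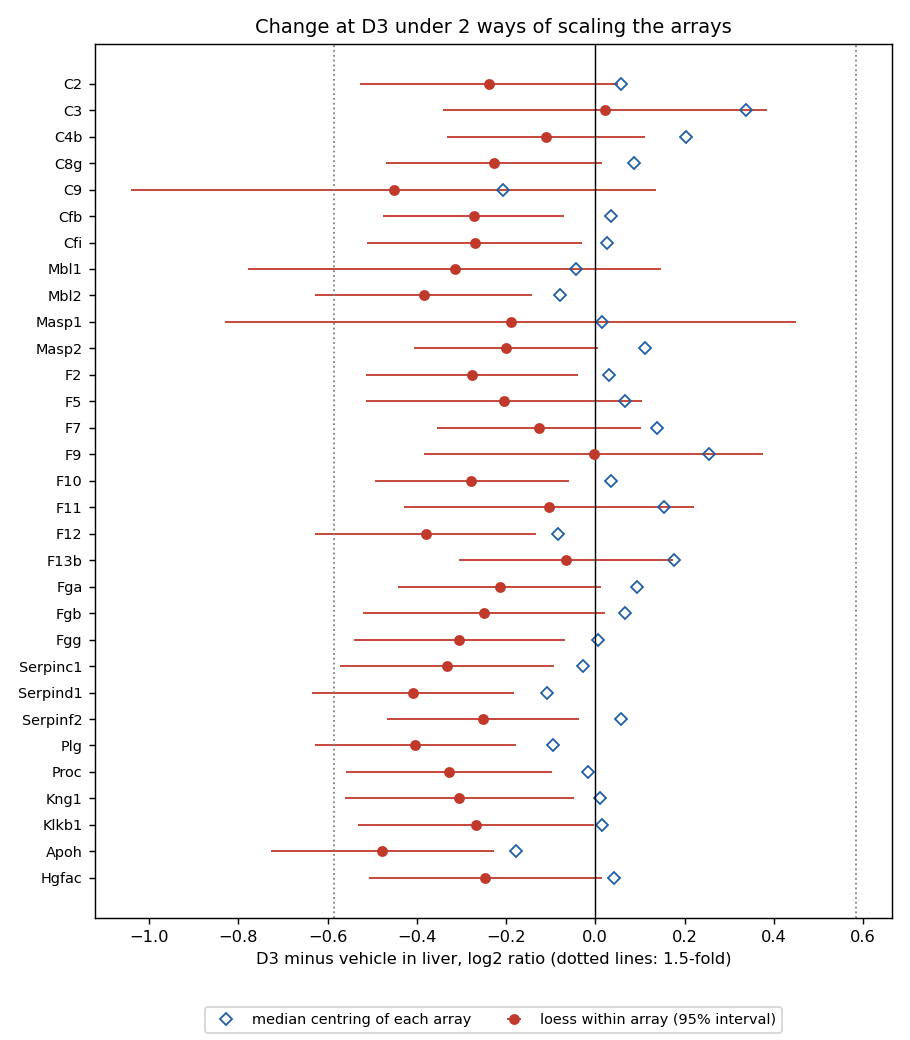
Change from vehicle at D3 in liver for each of the 31 genes on the log2 scale, as the estimate with its 95% interval after loess scaling (circles) and as the estimate after median centring (diamonds), with 4 livers in each group. The circles ran from -0.48 (Apoh) to 0.022 (C3) with 30 of 31 below 0, and the diamonds had 22 of 31 above 0.

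The size of the difference depended on the scaling at D2, at D3, with the doses pooled and for the trend, while at D1 the members' median was -0.067 under median centring, with 26 of 31 below vehicle. Median centring set the median of all probes kept in liver to 0.14 at D3 and 0.13 at D2. The members had a median of 0.035 at D3 and 0.047 at D2 under it, which was -0.11 and -0.080 relative to that shift, and 26 of the 31 lay below the all-probe median at D3. Under loess the per-liver median deviation of the members was -0.12, 0.070, -0.0065 and 0.061 in the vehicle livers of mice 1 to 4, -0.062 and -0.12 at D1, -0.076, -0.21 and -0.23 at D2, and -0.37, -0.33, -0.18 and -0.19 at D3. All 4 D3 livers were below all vehicle livers on this median. Under median centring the D3 livers took values of 0.24, -0.18, -0.25 and 0.32, on both sides of the vehicle range of -0.14 to 0.21.

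**Figure D3:**
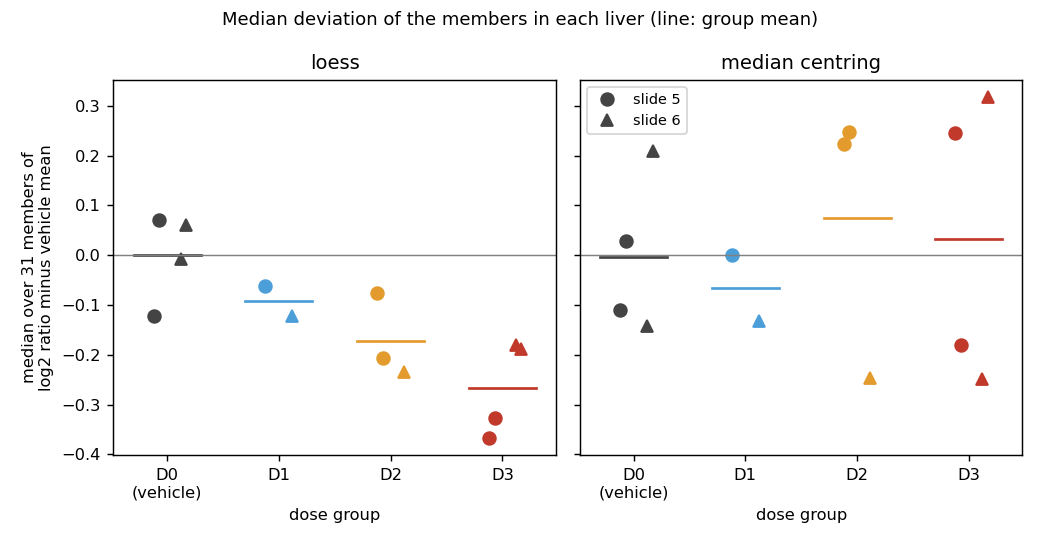
Median over the 31 genes of the log2 ratio minus the vehicle mean in each liver, by dose group and slide, after loess scaling (left) and after median centring (right), with lines at group means. Under loess the D3 livers lay between -0.37 and -0.18, below the vehicle livers, and under median centring they spread from -0.25 to 0.32, across the vehicle range.

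The difference was also divided between the dyes. In the sample channel alone, taken after loess and scaled between arrays, 27 of 31 members were below vehicle at D3, with a median of -0.12. In the channel of the reference RNA, the same material on every array and treated likewise, 30 of 31 were above vehicle at D3, against 49.3% of all probes. The median of the 31 was 0.14, beside -9.3e-04 over all probes. In the unscaled intensities of the sample, 31 of 31 members were above vehicle at D3, with a median of 0.30 beside 0.32 over all probes. In those of the reference, 29 were above, with a median of 0.13 beside 0.0058. In the scaled reference channel 0 members were called (limma), with a smallest adjusted p of 0.977. The 10 spiked-in control transcripts differed between the D3 and the vehicle livers by -0.731 to -0.518 on the log2 scale after loess scaling, by 0.267 to 0.486 in lung and by -0.0842 to 0.136 in forestomach. The part of these differences in the member values was not tested.

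Members were genes far more abundant in liver than in the reference, and probes of that kind were lower in general after loess scaling while after median centring those above a ratio of 6 had medians below that of all probes but not below vehicle. Probes were grouped by their mean log2 ratio in the 5 D1 and D2 livers, which enter neither side of the D3 contrast. The median D3 change of all probes was 0.0029 below a ratio of 0, -0.0059 from 0 to 2, -0.031 from 2 to 4, -0.11 from 4 to 6, -0.23 from 6 to 8 and -0.305 above 8. The 16 members in the class from 6 to 8 had a median of -0.26 and the 10 above 8 had -0.32, where all 257 and 102 probes of those classes had -0.23 and -0.305. The 4 members from 4 to 6 had a median of -0.21 against -0.11, and the 1 from 2 to 4 had -0.19 against -0.031. With median centring the 6 classes in the same order stood at 0.199, 0.087, 0.217, 0.146, 0.054 and 0.0034 over all probes, beside 0.14 over all classes together, and the members of the 2 highest classes at 0.039 and -0.0050.

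**Figure D4:**
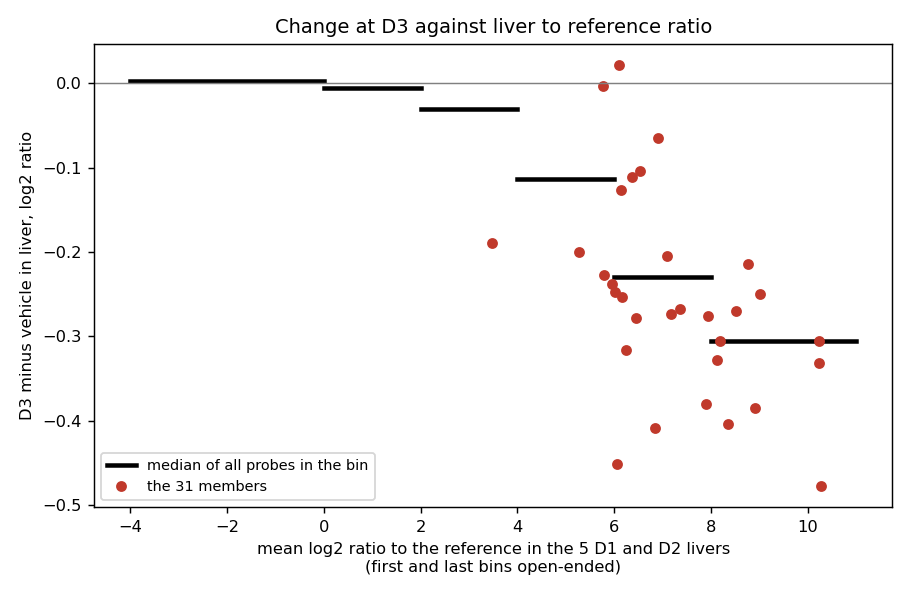
Change at D3 in liver (log2, loess scaling) against the mean log2 ratio to the reference in the 5 D1 and D2 livers, for the 31 genes (points) and as the median of all probes in each class of ratio (bars). The bars descended from 0.0029 to -0.305, and the points of the 2 highest classes lay around them. The 4 points from 4 to 6 had a median of -0.21 against -0.11, and the 1 from 2 to 4 was at -0.19 against -0.031. With median centring the classes stood at 0.199 for the lowest, 0.217 from 2 to 4 and 0.0034 for the highest.

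Other hepatocyte genes were read on the same scale. Of 44 other proteins secreted by hepatocytes, 41 were below vehicle at D3 with a median of -0.32, from Apob, the core protein of very low density lipoprotein, at -0.66 ± 0.14 (adjusted p = 0.156) to Pltp, the phospholipid transfer protein, at 0.44 ± 0.19. Of 36 hepatocyte enzymes, transporters, receptors and other proteins that are not secreted, 34 were below vehicle with a median of -0.27, from Cyp2e1, a cytochrome P450, at -0.68 ± 0.47 to Ugt2b1, a glucuronosyltransferase, at 0.042 ± 0.345. With median centring these lists had medians of -0.016 and 0.039. Genes whose proteins are not secreted thus had a median close to that of the members, and the difference between the lists was not tested. None of these genes was called.

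The rest of the cascade was more mixed. Of 45 other complement and coagulation genes, many of which are not confined to hepatocytes, 28 were below vehicle and 17 above at D3, with a median of -0.10 and 0 called. C8a, a chain of the terminal component C8, had the lowest value, -1.04 ± 0.47 (adjusted p = 0.626), and Cfd, the fat-derived protease adipsin, the highest, 2.83 ± 1.08 (adjusted p = 0.565). Under median centring that list stood at 0.16. Of 17 transcription regulators of the hepatocyte, 10 were below vehicle with a median of -0.019, which was 0.24 with median centring, from Hnf4a, a nuclear receptor of hepatocyte identity, at -0.35 ± 0.10 (adjusted p = 0.373) to Dbp, a clock output factor, at 1.64 ± 0.73.

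Of 17 genes of interleukin-6 signalling and the acute phase, 11 were above vehicle at D3, where 51.3% of all probes were below it. Their median was 0.090, from Hp, haptoglobin, at -0.21 ± 0.12 to Saa3, a serum amyloid, at 1.85 ± 0.55 (limma, adjusted p = 0.409). At D1, 11 of the 17 were below vehicle, and the difference from the members was not tested. With median centring all 17 were above vehicle at D3, with a median of 0.38, beside 0.14 over all probes. The 6 genes of the vitamin K cycle, which allows the carboxylation of F2, F7, F9, F10 and Proc, had a median of 0.011, the highest being Nqo1, a quinone reductase that is also a target of the aryl hydrocarbon receptor, at 0.49 ± 0.31, and with median centring all 6 were above vehicle, with a median of 0.29. Of 9 targets of the receptor, 7 were above vehicle, from Aldh3a1, an aldehyde dehydrogenase, at -0.19 to Cyp1a1. With median centring Hp and Aldh3a1 were above vehicle, at 0.11 and 0.080. None of these genes passed the test either.

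Markers of cell types were read beside these values. All 8 hepatocyte markers are also in the lists above. Alb, Ttr, Apoa1, Apoa2 and Ahsg are among the secreted proteins, Cps1 and Hpd among those not secreted, and Serpina1a among the other complement and coagulation genes. The 8 were all below vehicle at D3 after loess scaling, with a median of -0.37 and 6 at an unadjusted p under 0.05, from Serpina1a, the alpha-1 antitrypsin, at -0.41 ± 0.14 to Hpd, a tyrosine-degrading enzyme, at -0.27 ± 0.10, and median centring put the former at -0.094 and the latter at 0.046. All 7 markers of stellate cells and fibroblasts were above vehicle at D3 with a median of 0.41, from Lrat at 0.012 to Col3a1 at 1.17 ± 0.38 (adjusted p = 0.457), and their mean log2 ratio ran from -1.46 to -1.34 in vehicle livers and from -1.34 to -0.14 in D3 livers. The mean of the 7 macrophage markers ran from 2.83 to 3.32 in vehicle livers, from 2.31 to 3.62 in D2 livers and from 2.87 to 3.42 in D3 livers. Single macrophage markers went both ways at D3, with 3 below and 4 above vehicle. The 6 neutrophil markers had a mean log2 ratio of 2.58 in the D2 liver of mouse 13, where all 6 were above background, and of -0.13 to 0.81 in the other 12 livers. The 5 of them kept in liver had a median change of 1.66 at D2, and 0 were called. Stellate cell and fibroblast markers reached -0.22 in the D2 liver of mouse 12. Without the D3 liver of mouse 17, the median of the members at D3 was -0.25, with 29 of 31 below vehicle and 13 at an unadjusted p under 0.05. With the muscle score of each array as a covariate these values were -0.25, 29 and 14. Without mouse 16 the median was -0.22 and the last count 8. Without the D2 liver of mouse 13, the median of the members at D2 was -0.19, with 26 of 31 below vehicle and 6 at that p. The part of the neutrophil, stellate and macrophage markers in the member values was not tested in any other way.

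In vehicle mice all 31 genes were higher in liver than in lung and in forestomach (limma over 42 arrays, largest adjusted p 5.67e-05), where 20.8% and 18.3% of all probes were called higher in liver. Tissue and slide cannot be told apart in this comparison, since livers were hybridised on slides of their own. In the other tissue 10 genes in lung and 13 in forestomach were well above background on 0 of 4 vehicle arrays, among them Fgb and Apoh in lung and Plg in forestomach, so that the level there has only an upper limit and no difference is given. Among the genes measured on all 4 vehicle arrays of the other tissue, the difference from lung ran from 6.54-fold for C4b (log2 difference 2.71 ± 0.22, SE) to 169-fold for Proc (7.40 ± 0.46), and that from forestomach from 29.0-fold for C2 (4.86 ± 0.38) to 60.1-fold for C3 (5.91 ± 0.45).

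Some members were measured outside the liver. In vehicle lung 12 genes were well above background on all 4 arrays: C2, C3, C4b, C8g, Cfb, F5, F7, F9, F10, Serpind1, Proc and Klkb1. In vehicle forestomach 4 were, namely C2, C3, C4b and Cfb. C3 had a log2 ratio of 5.96 ± 0.24 (SD, n = 4) in liver, 1.62 ± 0.48 in lung and 0.047 ± 0.740 in forestomach. Cfb had 7.27 ± 0.09, 3.11 ± 0.39 and 1.64 ± 0.47 in the same order.

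**Figure D5:**
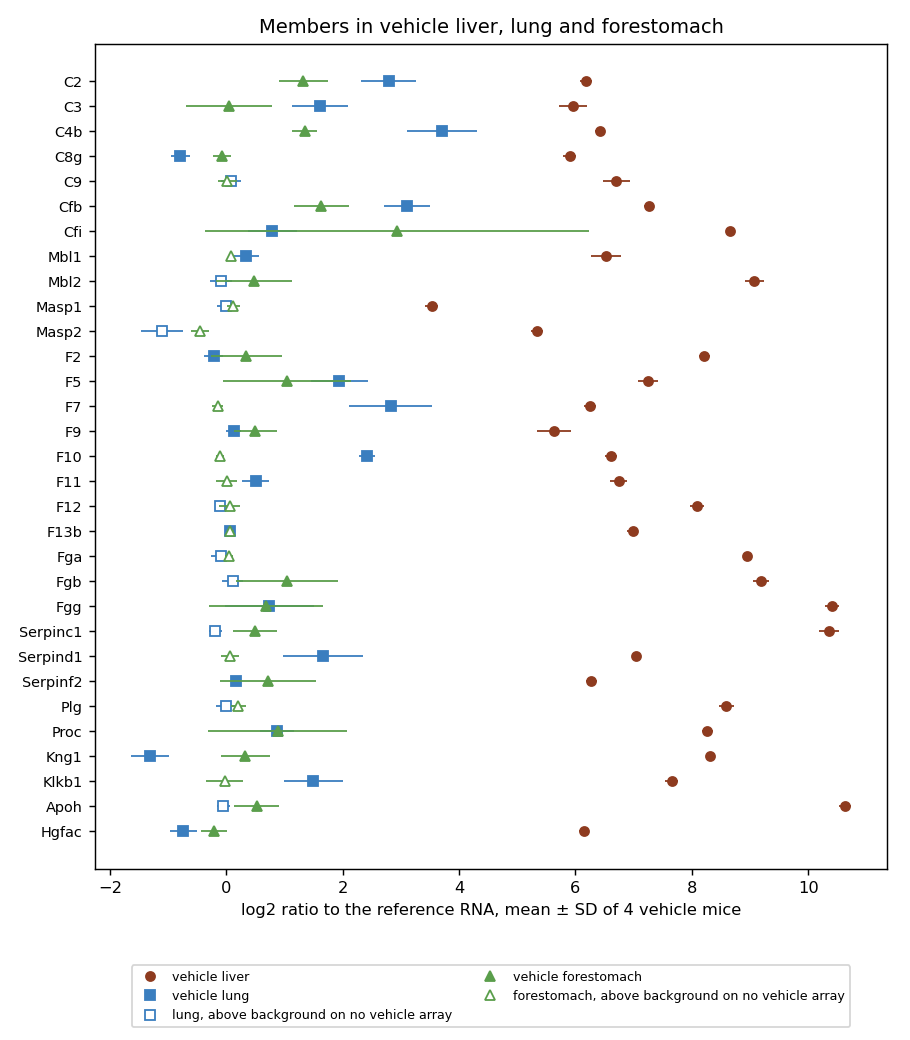
Log2 ratio to the reference RNA of each of the 31 genes in vehicle liver, lung and forestomach, as the mean and SD of 4 mice, with open symbols where the probe was well above background on no vehicle array of the tissue. The liver values lay to the right of both other tissues for all 31 genes, and for the 12 genes measured on all 4 vehicle lung arrays the distance to lung was 2.71 (C4b) to 7.40 (Proc) on the log2 scale.

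Exposure was then read in the contrast tissues. In lung 20 of the 31 genes were measured (Fga and F7 by another probe than in liver) and none was called at any dose (limma, 0% of all probes at D1, 0.0153% at D2 and 0.0336% at D3). At D3, 9 of the 20 were below vehicle, against 49.1% of all probes, with a median change of 0.028, which was -0.092 without the vehicle lung of mouse 4 and also below 0 without the D3 lung of mouse 19 or of mouse 20. The range was -0.35 ± 0.23 (C2) to 0.24 ± 0.53 (F10). At an unadjusted p under 0.05, 0 members were lower (4.07% of all probes) and 0 higher (3.94%) at D3. At D1 and D2, 14 and 15 of the 20 were above vehicle, with medians of 0.11 and 0.19, where 52.5% and 51.4% of all probes were below it. F11 was lower at that p at D1, where it was well above background on 0 of 3 arrays, so that no size is given (1.09% of all probes, and 0 members were higher, where 0.679% of all probes were), and C3 and F5 were higher at D2, by 0.60 ± 0.22 and 0.91 ± 0.36 (2.18% of all probes, adjusted p = 1 for all 3), while 0 members were lower at D2 (2.07%). F5 was at 0.50 without the D2 lung of mouse 12, whose log2 ratio of 4.07 compared with 2.30 to 2.72 in the other D2 lungs. The D2 median was 0.036 without the D2 lung of mouse 15. With median centring 11, 17 and 10 of the 20 were above vehicle at D1, D2 and D3, and the D2 median was 0.13 beside 0.098 over all probes. At D2, 1 member was then higher at an unadjusted p under 0.05, and C3 and F5 were at 0.83 and 0.69. The D2 lung of mouse 12 stood apart, with a mean log2 ratio of 4.73 over the skeletal muscle markers against -0.86 to -0.39 in the other lungs, and it was also the highest for the macrophage markers (4.599 against 0.44 to 1.78) and the neutrophil markers (4.65 against 1.52 to 3.90).

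In forestomach 20 genes were measured and again none was called, nor was any other probe (limma, 0% at D1, 0% at D2 and 0% at D3). At D3, 9 of the 20 were below vehicle, against 49% of all probes, with a median change of 0.074, which was -0.40 without the D3 forestomach of mouse 17. C4b and Cfb were the 2 that reached an unadjusted p under 0.05, both above vehicle, by 0.64 ± 0.25 and 0.84 ± 0.37, where 1.38% of all probes were higher at that p. Cfb was at 0.40 without the D3 forestomach of mouse 16. At D2, 16 of the 20 were above vehicle with a median of 0.22, while 47.1% of all probes were below it, and 3 were higher at that p, C4b by 0.72 ± 0.23, Cfb by 0.79 ± 0.35 and F10, for which no size is given because it was well above background on 0 of 4 vehicle and 2 of 4 D2 arrays (2.7% of all probes, adjusted p = 0.523, 0.633 and 0.597), while 0 members were lower (4.89%). The D2 median turned to -0.020 without the D2 forestomach of mouse 15. At D1, 11 of the 20 were below vehicle, against 52% of all probes, with a median of -0.032, and 0 members were lower (7.81% of all probes) or higher (4.32%) at that p. With median centring 8, 17 and 11 of the 20 were above vehicle at D1, D2 and D3, and 1 was higher at that p at D2 and 0 at D3. C4b and Cfb were then at 0.71 and 0.61 at D2 and at 0.83 and 0.76 at D3. The forestomach samples differed in glandular stomach markers, whose mean log2 ratio was 4.87 to 6.05 in 9 samples and 0.60 to 1.90 in the other 5 (D0 mice 1 and 4, D2 mouse 11, D3 mice 16 and 20). Cfi moved with these markers, with log2 ratios of 3.468 to 6.545 in the former and -0.051 to 0.37 in the latter. Proc and F5 did so as well, at 0.077 to 2.22 and 0.47 to 3.55 in the former. In the latter they were at -0.54 to -0.0067 and -0.089 to 0.45, where Proc was well above background in no sample. Fgb and Fgg were highest in the D2 forestomach of mouse 15, at 3.44 and 3.45, which also had the highest mean of the hepatocyte markers, 3.07 against 0.14 to 2.67 in the others.

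The D3 effect itself was compared between tissues in 1 fit over all arrays. For the 19 genes measured by the same probe in liver and lung, the liver effect minus the lung effect had a median of -0.24 on the log2 scale, -0.093 without the vehicle lung of mouse 4, with 14 below 0, 0 at an unadjusted p under 0.05 on the lower side (2.78% of all probes) and 0 called (0.0153% of all probes). For 20 genes measured in liver and forestomach the median was -0.36, with 13 below 0, 2 at an unadjusted p under 0.05 (1.94% of all probes) and 0 called (0% of all probes). The 2 were Cfb, -1.11 ± 0.39 (-0.68 without the D3 forestomach of mouse 16), and C4b, -0.75 ± 0.33, the genes that were above vehicle in the D3 forestomach. The intervals were wide: for Fgg the 95% interval of the difference was -1.91 to 1.05 against lung and -1.36 to 1.72 against forestomach. Without the D3 forestomach of mouse 17 the forestomach median turned to 0.065.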

How the data were processed

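RNA of liver, lung and forestomach was hybridised with a common reference on 42 Agilent two-colour mouse arrays, without dye swaps. The authors deposited scanner files with median spot intensity per channel, local background intensity, a log10 ratio set by the scanner software and other values that flag spots, all per the file headers, made by Feature Extraction 11.0.1.1 in liver and 10.7.3.1 in the other tissues. The deposited table of log2 values, LOWESS-scaled by the authors, was not used: it correlated with the scanner ratios at 0.995 to 0.999 in lung and forestomach, but at -0.00301 to 0.000337 in liver, when matched by probe name, for a reason that was not tested.

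From the unsubtracted medians, log2(red/green) was scaled by loess within each array (limma 3.58.1, R 4.3.3), with control spots at weight 0. Flagged outlier spots were dropped, spots of a probe averaged, and probes kept when well above background in red on as many arrays as the smallest group (2 in liver, 3 elsewhere). Symbols came from matching the arrays' accessions to RefSeq and covered 27224 of 55681 probes, 43 named differently by the 2 layouts being left unnamed. A gene is given by its brightest kept probe. The authors' MAANOVA was not used, and limma's moderated test took its place, two-sided, with Benjamini-Hochberg adjustment over the probes kept. Calls followed the study's thresholds (adjusted p of at most 0.05, 1.5-fold). Motif counts used RefSeq promoters. The fit was tested on simulated data. Depth has no counterpart on arrays, whose number limits the precision. Mice are the replicates.

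The members, gene lists and tests were chosen with earlier results of these data known. Every member is named. Values of every liver are given for members called, the 3 lowest and 3 highest at D3, and Fga, Fgb, Fgg, C3, F2, Plg and Serpinc1. From other lists the change is given for genes called and for the lowest and highest at D3, of which 1 is not reported here. Alternatives were the scanner log ratio, normexp, median centring, the sample channel alone, other filters, slide as a block or alone, the 2 groups alone, a muscle covariate, mean over probes, the mouse as a block between tissues, and leaving out each array. Median centring in lung and forestomach was added after seeing the data.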

Additional observations from a re-analysis of the deposited data

Results flagged for a closer look

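Among 68 sets of 4 vehicle or 4 D3 livers, 7 had 1 liver far from the other 3, where chance gives about 1 in 20. Of the log2 ratios of the complement genes, C4b was 6.06 in D3 mouse 16 against 6.37 to 6.41, C8g was 5.74 in D0 mouse 1 against 5.93 to 5.97, and Mbl1 was 5.61 in D3 mouse 19 against 6.38 to 6.44. F13b was 6.84 in D0 mouse 2 against 7.02 to 7.05, and 7.24 in D3 mouse 20 against 6.78 to 6.85. Plg was 8.31 in D3 mouse 17 against 8.14 to 8.16. The mean log2 ratio of the skeletal muscle markers was 3.55 in D3 mouse 17 against -0.805 to -0.639 in the other D3 livers.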

How the results depend on the processing

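No call was gained or lost for a member in any dose contrast under any alternative run. With median centring the members' median was 0.0472 at D2, 0.0349 at D3, 0.00711 with the doses pooled and 0.0538 for the trend, the members below 0 numbered 11, 9, 11 and 9, and 0 were lower at an unadjusted p under 0.05 at D2, at D3 and for the trend. The D3 changes that turned to positive under it were 0.0586 for C2, 0.204 for C4b, 0.0875 for C8g, 0.036 for Cfb, 0.0263 for Cfi, 0.0158 for Masp1, 0.111 for Masp2, 0.0307 for F2, 0.0657 for F5, 0.138 for F7, 0.256 for F9, 0.0349 for F10, 0.154 for F11, 0.177 for F13b, 0.0942 for Fga, 0.0662 for Fgb, 0.00597 for Fgg, 0.0565 for Serpinf2, 0.0109 for Kng1, 0.0145 for Klkb1 and 0.042 for Hgfac. The cause was not tested. With the sample channel alone, taken after loess, the medians were -0.102 at D2, -0.116 at D3, -0.0905 pooled and -0.115 for the trend, 4 members were lower at an unadjusted p under 0.05 at D3 and 4 for the trend, and the D3 change turned for C3 (-0.167), C4b (0.0489), Masp2 (0.108), F9 (0.0305) and Fga (0.083). Slide 5 alone left 2 members lower at that p at D2 and F9 at 0.0787. Slide 6 alone gave medians of -0.162 at D3 and -0.164 for the trend, 2 members lower at that p in each, and C3 at -0.0472. The muscle score as a covariate put F9 at 0.0687. The scanner's log ratio put the median vehicle difference at 7.59 against lung and 7.53 against forestomach. Leaving out 1 array at a time gave 5 to 11 members lower at that p at D2 (11 without D2 mouse 11), 8 to 18 at D3 and 10 to 20 for the trend (8 and 10 without D3 mouse 16), and D3 changes of -0.117 to 0.133 for C3, -0.403 to 0.0383 for Masp1 and -0.12 to 0.1 for F9. Changes that kept their sign but moved by over 1.5 times ran from -0.433 to -0.115 for Mbl1, -0.153 to -0.0277 for C4b, -0.327 to -0.0899 for F5, -0.178 to -0.0656 for F7, -0.166 to -0.0267 for F11, -0.173 to -0.0202 for F13b, -0.337 to -0.159 for Fgb and -0.384 to -0.187 for Kng1. The lung median ran from 0.036 to 0.232 at D2 and from -0.0918 to 0.0421 at D3, that of forestomach at D2 from -0.0202 to 0.437, and the D1 liver median was -0.0617 without D1 mouse 9. The forestomach D3 median ran from -0.398 to 0.254 and the liver minus forestomach difference from -0.567 to 0.0651, with -0.398 and 0.0651 both without D3 forestomach mouse 17.

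With the mouse as a replicate block, since tissues came from the same animals, the differences of the D3 effect had medians of -0.24 against lung and -0.366 against forestomach and no call changed. Within a tissue each mouse had 1 dose, so dose contrasts could not be paired. Normexp, both other filters, slide as a block, the 2 groups alone and the mean over probes moved no result past its limits. The deposited table was not run in liver.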
